A study of Mus musculus with 30 samples.

Results

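The 32 genes described here encode enzymes of sterol and fatty acid synthesis and the proteins that control them. They were chosen by symbol from a list drawn up with the age and sphere differences of these tables known, and no cut-off was applied to any value. All 32 were found among the 14997 genes used from the captured-cell table and the 26005 genes of the sphere table. Of these, 19 are sterol pathway enzymes, 8 are fatty acid enzymes and 5 are regulators and carriers. Because those differences were in view, the list's counts and medians are descriptions and are given beside those of all genes.

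Polyadenylated RNA was profiled in 30 mouse libraries. Midbrain floor plate cells were taken by laser capture microdissection at embryonic days 11, 13 and 18 (E11, 4 libraries; E13, 5; E18, 5) and postnatal day 70 (P70, 6), and every captured library carries the genotype Lmx1aCreERT2; R26TRAPC, so no library of another genotype served as a control. Lmx1aCreERT2 is a tamoxifen-inducible Cre recombinase expressed from Lmx1a, a gene of the floor plate and roof plate. The other libraries came from adult spheres grown in vitro, 5 named MB and 5 named FB. The series describes ependymal spheres grown from the midbrain aqueduct and neurospheres grown from the lateral ventricle, but the labels do not spell out MB or FB and give the spheres no genotype. No label ties libraries to animals or cultures, so p-values measure only the spread between these samples, which may be technical.

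Cholesterol is built from acetyl-CoA through mevalonate, isoprenoid units and squalene to lanosterol, which is then demethylated and rearranged. Fatty acids are built from the same acetyl-CoA by carboxylation and chain growth, and are then lengthened and desaturated. The transcription factors Srebf1 and Srebf2 drive both routes once Scap carries them out of the endoplasmic reticulum, and Insig1 holds Scap back when sterols are plentiful. The brain makes its own cholesterol, since lipoproteins of the blood do not readily cross into it.

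The promoters of 4 members are shown as examples, chosen with the results known. They differ in the exact matches found to short sequences linked to this control, and the genes differ in direction in the comparisons that follow. No link between the sequences and the directions was tested. Hmgcs1 and Cyp51 were lower at P70 than at E18, Ebp was higher, and Fads2 was higher in MB than in FB spheres. Each window runs from 250 bases before to 50 bases after the annotated start (RefSeq, build GRCm38.p6), is written 5′ to 3′ on the gene's strand, and has matched motifs in capitals. Hmgcs1 lies at chr13:119690101-119690400 on the plus strand, Cyp51 at chr5:4104648-4104947 on the minus strand, Ebp at chrX:8193463-8193762 on the minus strand and Fads2 at chr19:10101454-10101753 on the minus strand.
Hmgcs1: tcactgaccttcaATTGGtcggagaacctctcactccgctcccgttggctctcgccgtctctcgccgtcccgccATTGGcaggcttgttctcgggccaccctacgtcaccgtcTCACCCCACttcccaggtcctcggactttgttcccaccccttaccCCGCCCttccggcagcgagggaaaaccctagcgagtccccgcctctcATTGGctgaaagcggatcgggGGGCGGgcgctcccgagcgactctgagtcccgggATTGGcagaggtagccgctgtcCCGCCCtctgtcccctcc
Cyp51: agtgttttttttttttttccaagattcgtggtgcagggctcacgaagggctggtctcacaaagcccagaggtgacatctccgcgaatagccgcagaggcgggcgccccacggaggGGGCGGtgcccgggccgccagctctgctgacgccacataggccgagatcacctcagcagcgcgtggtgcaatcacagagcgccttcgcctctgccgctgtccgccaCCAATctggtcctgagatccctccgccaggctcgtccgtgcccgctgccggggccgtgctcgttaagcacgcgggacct
Ebp: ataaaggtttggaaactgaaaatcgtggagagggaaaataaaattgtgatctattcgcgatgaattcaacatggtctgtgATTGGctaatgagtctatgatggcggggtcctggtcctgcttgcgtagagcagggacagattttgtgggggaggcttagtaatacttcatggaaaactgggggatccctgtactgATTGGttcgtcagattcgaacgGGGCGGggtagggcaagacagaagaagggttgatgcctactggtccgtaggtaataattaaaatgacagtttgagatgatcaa
Fads2: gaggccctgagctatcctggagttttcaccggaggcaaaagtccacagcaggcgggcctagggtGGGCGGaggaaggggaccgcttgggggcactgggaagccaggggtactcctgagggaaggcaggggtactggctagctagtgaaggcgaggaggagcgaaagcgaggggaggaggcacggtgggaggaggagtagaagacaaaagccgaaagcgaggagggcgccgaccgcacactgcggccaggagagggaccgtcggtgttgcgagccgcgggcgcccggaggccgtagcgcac

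A window was found for 25 of the 32 genes, and Fdps, Fdft1, Sqle, Scd1, Scd2, Fads1 and Stard4 had none. Searched on both strands, the box CCAAT, which binds the factor NF-Y, was in 20 of the 25 windows, against 41.1% of 27025 gene windows of the same length. By role, it was in 15 of 16 windows of sterol enzymes, 2 of 5 of fatty acid enzymes and 3 of 4 of regulators. The GC box GGGCGG was in 20 of 25, against 38.2% of all windows, and the E-box CACGTG in 5 of 25, against 8.09%. The sterol element TCACNCCAC was found in the Hmgcs1 window alone, starting 137 bases before the annotated start as TCACCCCAC, against 1.44% of all windows. Its core CACNCCAC, which lies inside it, was in 3 windows, those of Hmgcs1, Acat2 and Insig1, against 7.12% of all. Hmgcs1 held 4 CCAAT boxes and 3 GC boxes, Ebp held 2 and 1, Cyp51 held 1 and 1, and Fads2 held a GC box and no CCAAT box. The Fasn window, not shown, held CCAAT boxes and no GC box. A match in a window is a description of its letters and not a binding site. Only the exact letters given were searched, so variants of an element were not counted. A window without a match, such as that of Cyp51 for the sterol element, is not shown to lack one.

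Levels in captured cells are the authors' deposited values, which behave like RPKM, reads scaled to gene length and library size (called units here), and sphere levels are CPM, counts scaled to library size. Reads recovered from the captured values came to 4829553 to 7320592 per library at E11, E13 and E18 and 2169148 to 4726230 at P70, and spheres held 6327198 to 9291311 counts. Floor plate genes such as Lmx1a, Foxa2 and Otx2 summed in E11 libraries to 540 to 649 units, in E13 libraries to 579 to 679, in E18 libraries to 204 to 297 and in P70 libraries to 119 to 169, with 10, 9, 8 and 7 of 10 listed. In the spheres the same 10 genes summed to 21.3 to 25.2 CPM in MB and 2.83 to 8.07 CPM in FB, where Foxa1, Lmx1b and Wnt1 were at 0 in every library. Across genes, E18 replicate 3 correlated with the rest of its age at 0.927, against 0.951 to 0.980 for the other E18 libraries, and P70 replicate 6 at 0.909, against 0.922 to 0.962. Without E18 replicate 3, 22 of the 32 genes were called between E18 and E13, as with it, but Pmvk (limma adjusted p = 0.0844) and Acaca (0.0732) lost their calls while Tm7sf2 (0.0191) and Srebf1 (0.013) gained theirs. Between P70 and E18, no gene's call changed without either library.

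Summed over the 19 sterol enzymes, E11 libraries held 1228 to 1358 units, E13 libraries 719 to 1169, E18 libraries 1327 to 1747 and P70 libraries 381 to 566. The 8 fatty acid enzymes summed to 379 to 472 units in E11 libraries, 237 to 339 in E13, 675 to 929 in E18 and 427 to 605 in P70 libraries. At E11 the highest means were those of Acat2 (346 units), Hmgcs1 (208) and Scd2 (192). At E18 they were those of Scd2 (484 units), Hmgcs1 (371) and Acat2 (196), and at P70 those of Scd2 (292 units), Fads1 (103) and Srebf1 (76.7). Of the 32 genes, 17 had their highest mean at E18, 9 at E11, 5 at P70 and 1 at E13, and among the 19 sterol enzymes 14 had their lowest mean at P70. The heat map and the plot of mean levels by role show these levels library by library.

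**Figure D1:**
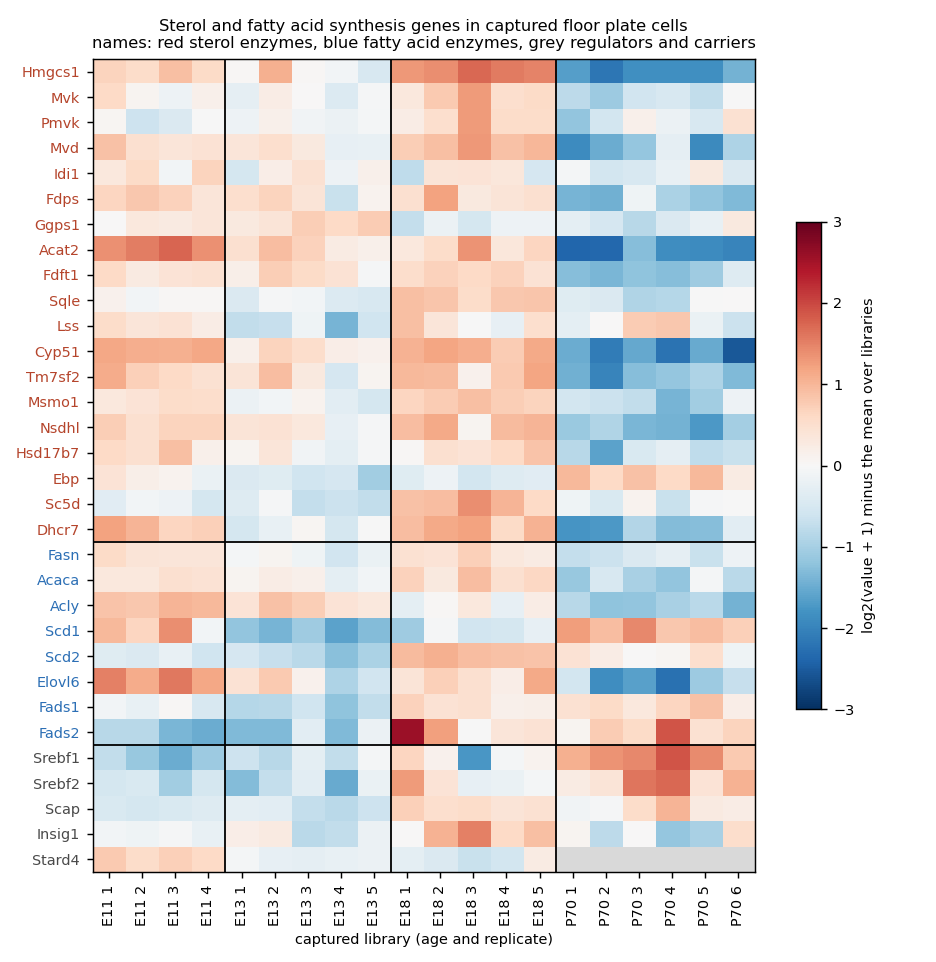
Heat map of the 32 genes (rows) in the 20 captured libraries (columns, by age), coloured by log2(value + 1) minus the gene's mean over libraries, with grey where Stard4 is not listed at P70. Most sterol enzymes are red at E18 and blue at P70, while Ebp, Scd1 and Srebf1 are red at P70.

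**Figure D2:**
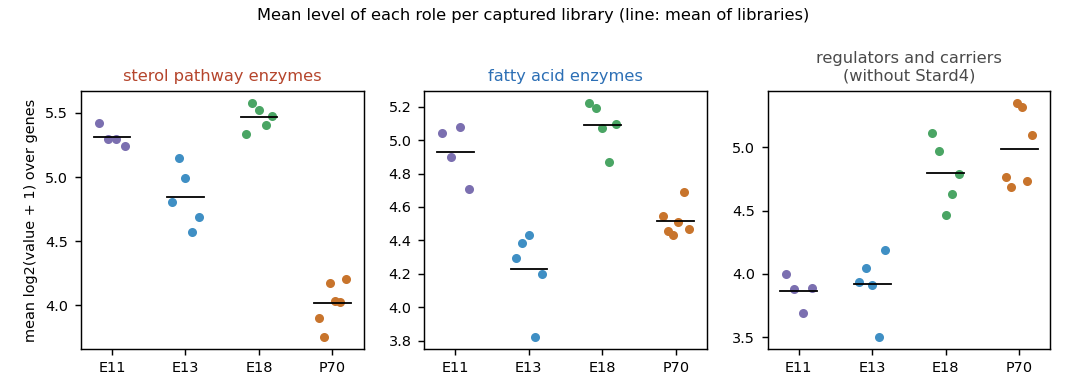
Mean log2(value + 1) over the genes of each role in each captured library (points) at E11, E13, E18 and P70, with a line at the mean of the libraries and a separate vertical scale per panel. Sterol enzymes lie at 5.33 to 5.58 at E18 and at 3.75 to 4.21 at P70, and the regulators are drawn without Stard4, which is not listed at P70.

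Between E13 and E11, genes of both routes were lower at the later age and none passed the test as higher. With limma on log2(value + 1) and p adjusted by Benjamini-Hochberg over 11567 genes, 12 of the 32 passed, against 20.4% of all genes. These 12 were lower, against 11.2% of all genes, and 0 were higher, against 9.26%. At an unadjusted p under 0.05 there were 15, each of them lower. The lower genes were 6 of 19 sterol enzymes, 5 of 8 fatty acid enzymes and Stard4. The median log2 change was -0.47 for sterol enzymes and -0.52 for fatty acid enzymes, against -0.04 over all genes. Without E13 replicate 4 the sterol median was -0.30. In 13 of the 32 every E13 library lay below every E11 library, as did 17.2% of all genes. In these bulk samples fewer cells of a type and less RNA per cell cannot be told apart.

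Among the sterol enzymes, Dhcr7, which makes the last reduction to cholesterol, measured 11.7, 14.5, 17.9, 11.7 and 16.9 units at E13, against 40.8, 36.0, 27.5 and 28.9 units at E11. The groups did not overlap, and the log2 change was -1.14 (SE 0.25, limma adjusted p = 0.00253). Acat2, a thiolase that joins acetyl-CoA units, measured 169, 229, 196, 143 and 135 units at E13, against 315, 349, 406 and 315 units at E11, again without overlap (log2 change -1.0, SE 0.23, limma adjusted p = 0.00332). Ebp, the isomerase that shifts the sterol ring double bond, measured 18.2, 19.2, 16.1, 17.2 and 11.6 units at E13, against 33.5, 28.4, 26.7 and 21.5 units at E11 (log2 change -0.71, SE 0.18, limma adjusted p = 0.00837). Cyp51, Lss and Msmo1, which act at or just after lanosterol, were the other 3 that fell, by 0.78, 1.10 and 0.64 on the log2 scale. The Msmo1 call was lost without E11 replicate 3 (limma adjusted p = 0.0545).

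Hmgcs1, the synthase that commits acetyl-CoA units to the mevalonate route, measured 133, 272, 134, 123 and 92.9 units at E13, against 207, 189, 242 and 195 units at E11. One E13 library was above every E11 library, and the difference did not pass the test (log2 change -0.55, SE 0.22, limma adjusted p = 0.0768). Without that library, E13 replicate 2, it passed at -0.79 (limma adjusted p = 0.00227), and its adjusted p ranged from 0.00227 to 0.201 over the alternatives tried. Sqle, the squalene epoxidase, measured 51.3, 68.0, 66.2, 52.5 and 50.1 units at E13, against 76.3, 66.2, 72.0 and 71.3 units at E11, which overlapped (log2 change -0.32, SE 0.18, limma adjusted p = 0.239). The other 11 sterol enzymes had log2 changes between -0.54 (Hsd17b7) and 0.31 (Ggps1) and did not pass. Pmvk and Ggps1 were the ones above 0 among all 19.

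Of the fatty acid enzymes, Scd1, a desaturase that places the first double bond in saturated chains, differed by more than any other member. It measured 2.06, 1.62, 2.33, 1.27 and 1.79 units at E13, against 12.7, 9.87, 17.1 and 5.52 units at E11 (log2 change -2.04, SE 0.27, limma adjusted p = 1.49e-05). Its paralog Scd2 measured 177, 157, 144, 106 and 131 units at E13, against 195, 188, 218 and 167 units at E11, and the groups overlapped (log2 change -0.44, SE 0.15, limma adjusted p = 0.0463). That Scd2 call was lost under 7 alternatives, among them median-ratio rescaling (log2 change -0.40, limma adjusted p = 0.0586) and leaving out any of E11 replicates 1 to 3 or E13 replicates 3 to 5, with adjusted p between 0.00681 and 0.143 over all alternatives. The ratio of Scd2 to Scd1 had a median of 83.2 at E13 (62 to 97) and 17.2 at E11 (12.7 to 30.3). Scd1 and Scd2 are similar in sequence, and the labels do not say how the authors assigned reads that paralogs share.

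Fads1, the delta-5 desaturase of polyunsaturated fatty acids, measured 38.6, 39.5, 46.7, 30.0 and 41.8 units at E13, against 67.4, 60.5, 72.3 and 50.4 units at E11 (log2 change -0.66, SE 0.17, limma adjusted p = 0.00794). Elovl6, which lengthens saturated chains, measured 6.87, 8.97, 5.34, 2.04 and 2.91 units at E13, against 15.6, 11.7, 16.4 and 11.9 units at E11 (log2 change -1.38, SE 0.36, limma adjusted p = 0.0091). Fasn, the synthase that builds palmitate, measured 19.3, 21.4, 18.4, 13.3 and 17.4 units at E13, against 30.5, 26.8, 26.4 and 26.4 units at E11 (log2 change -0.60, SE 0.17, limma adjusted p = 0.0129). None of these 3 overlapped between the ages. Fads2, the delta-6 desaturase, measured 15.0, 15.1, 31.1, 15.0 and 34.4 units at E13, against 21.5, 21.7, 14.5 and 13.4 units at E11, and spread too widely to call (log2 change 0.23, SE 0.43, limma adjusted p = 0.767). Acaca and Acly, which make malonyl-CoA and cytosolic acetyl-CoA, had log2 changes of -0.37 and -0.36 and did not pass.

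Among the regulators, Stard4, a carrier of sterols between membranes, measured 1.93, 1.59, 1.55, 1.64 and 1.74 units at E13, against 4.32, 3.46, 4.02 and 3.68 units at E11. It fell by 0.85 on the log2 scale (SE 0.25, limma adjusted p = 0.0226), resting on 20 to 29 recovered reads per library at E13 and 49 to 63 at E11, and the call was lost without E11 replicate 1 or 3 (limma adjusted p = 0.0614 and 0.0528). Srebf1 measured 18.51, 15.9, 23.8, 17.2 and 28.0 units at E13, against 17.2, 12.8, 9.80 and 13.1 units at E11 (log2 change 0.61, SE 0.34, limma adjusted p = 0.227). It passed as higher when only the libraries of these ages were fitted (limma adjusted p = 0.0365) and with a weight per library (0.016). Srebf2 measured 3.04, 5.05, 6.98, 2.52 and 7.77 units at E13, against 5.89, 6.28, 3.87 and 5.98 units at E11 (log2 change -0.17, SE 0.36, limma adjusted p = 0.797). Insig1 measured 49.5, 52.0, 24.1, 25.3 and 37.8 units at E13, against 40.4, 39.1, 41.6 and 36.5 units at E11 (log2 change -0.13, SE 0.33, limma adjusted p = 0.838). The ages overlapped for all of these but Stard4, and Scap did not pass either.

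Other lipid genes and marker genes were counted in the same fit, where 9.26% of all genes were higher at E13 and 11.2% lower. Of 36 tested genes on a list of other lipid synthesis genes, 3 were higher and 5 lower at E13, with a median log2 change of -0.08. Lpin1, a phosphatidate phosphatase, measured 5.65, 5.39, 4.6, 3.27 and 5.11 units at E13, against 1.84, 1.57, 2.50 and 3.06 units at E11 (log2 change 0.85, SE 0.21, limma adjusted p = 0.00621). Of 32 tested genes of cholesterol uptake, efflux and turnover, 4 were higher and 2 lower. Among them Apoe, the main protein of the brain's lipoproteins, was up by 1.57 on the log2 scale (SE 0.19, limma adjusted p = 7.54e-06). Fatty acid oxidation genes had a positive median of 0.39, with 7 of 23 higher and 0 lower, and 11 had an unadjusted p under 0.05, with Decr1 alone lower among them. Cpt1a, which admits fatty acids into mitochondria, measured 11.0, 6.27, 8.88, 7.02 and 10.3 units at E13, against 2.0, 2.45, 4.51 and 2.50 units at E11 (log2 change 1.341, SE 0.24, limma adjusted p = 0.000368).

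Levels of marker genes differed along with these values. Cell cycle genes summed to 538 to 1312 units at E13, against 2650 to 2874 units at E11, and 14 of 14 were lower. Neuronal genes summed to 1829 to 4862 units at E13, against 678 to 1282 units at E11, with 7 of 14 higher. Microglial genes summed to 236 to 375 units at E13, against 71.1 to 133 units at E11, with 12 and 10 of 12 listed. All 10 tested were higher. Astrocyte genes summed to 351 to 596 units at E13, against 65.7 to 96.6 units at E11, with 9 and 8 of 12 listed. Of the 8 tested, 6 were higher and 1 lower. Endothelial and mural genes summed to 104 to 150 units at E13, against 259 to 697 units at E11, with 2 of 8 tested lower and 0 higher (5 had an unadjusted p under 0.05 by limma). Their part in the lipid gene differences was not tested.

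Between E18 and E13, most genes of both routes were higher at the later age. This comparison and its neighbours share the E13 and E18 libraries, so opposite changes in them are not independent. Of the 32, 22 passed, against 47.0% of 11797 genes tested with limma. Of these, 20 were higher, against 22.2% of all genes, and 2 were lower, against 24.8%. The higher ones were 11 of 19 sterol enzymes, 6 of 8 fatty acid enzymes and 3 of 5 regulators, and the lower ones were Ggps1 and Acly. The median log2 change was 0.69 (sterol enzymes) and 0.72 (fatty acid enzymes), against -0.04 over all genes. Every E18 library lay above every E13 library for 15 of the 32, against 16.9% of all genes, and below for 1, against 20.9%.

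In the sterol route, Sc5d, which desaturates the sterol ring, measured 31.5, 33.1, 45.9, 35.2 and 26.1 units at E18, against 12.6, 16.4, 9.80, 10.3 and 9.60 units at E13 (log2 change 1.48, SE 0.19, limma adjusted p = 2.41e-06). Hmgcs1 measured 323, 343, 434, 384 and 369 units at E18, against 133, 272, 134, 123 and 92.9 units at E13 (log2 change 1.38, SE 0.21, limma adjusted p = 1.19e-05). Sqle measured 132, 125, 104, 124 and 125 units at E18, against 51.3, 68.0, 66.2, 52.5 and 50.1 units at E13 (log2 change 1.08, SE 0.17, limma adjusted p = 2.64e-05). None of the 3 overlapped between the ages. Dhcr7 measured 33.4, 38.9, 40.8, 25.9 and 36.6 units at E18, against 11.7, 14.5, 17.9, 11.7 and 16.9 units at E13, also without overlap (log2 change 1.22, SE 0.24, limma adjusted p = 0.000231). Mvk, Pmvk, Mvd, Lss, Cyp51, Msmo1 and Nsdhl rose by log2 changes between 0.65 (Nsdhl) and 1.01 (Lss). The Pmvk call (0.69, limma adjusted p = 0.0252) was lost without E13 replicate 4 or E18 replicate 3, with adjusted p up to 0.0844.

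Ggps1, which makes the geranylgeranyl diphosphate used to modify proteins and leads away from sterols, measured 8.01, 11.9, 9.23, 12.3 and 12.2 units at E18, against 16.9, 18.1, 23.4, 21.2 and 23.8 units at E13. All E18 values were below all E13 values, and it fell by 0.89 on the log2 scale (SE 0.19, limma adjusted p = 0.000668). Its exons overlap those of Arid4b on the opposite strand by 257 bases, and without strand such reads cannot be told apart. The same limit holds for Fdft1 (774 bases with Ctsb), Cyp51 (166 with Akap9) and Srebf1 (109 with Rai1). The other 7 sterol enzymes, Idi1, Fdps, Acat2, Fdft1, Tm7sf2, Hsd17b7 and Ebp, did not pass, with log2 changes between -0.05 (Idi1) and 0.57 (Tm7sf2). Tm7sf2 passed as higher under 4 alternatives, among them median-ratio rescaling, with limma adjusted p between 0.0104 and 0.219 over all of them.

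Among the fatty acid enzymes, Scd2 measured 489, 529, 482, 463 and 455 units at E18, against 177, 157, 144, 106 and 131 units at E13 (log2 change 1.77, SE 0.14, limma adjusted p = 3.19e-09), and it became the member with the highest mean. Fads1 measured 116, 96.3, 98.7, 78.6 and 79.8 units at E18, against 38.6, 39.5, 46.7, 30.0 and 41.8 units at E13 (log2 change 1.23, SE 0.16, limma adjusted p = 2.17e-06). Fads2 measured 238, 94.0, 38.6, 50.8 and 53.0 units at E18, against 15.0, 15.1, 31.1, 15.0 and 34.4 units at E13 (log2 change 1.82, SE 0.40, limma adjusted p = 0.000825). All 3 were above E13 in every E18 library, and the first E18 library had the highest Fads2 of any captured library. Scd1 measured 2.31, 5.75, 3.65, 3.78 and 4.82 units at E18, against 2.06, 1.62, 2.33, 1.27 and 1.79 units at E13, with 1 E18 library inside the E13 range (log2 change 0.82, SE 0.25, limma adjusted p = 0.0102). Fasn measured 28.0, 27.4, 33.8, 25.3 and 24.1 units at E18, against 19.3, 21.4, 18.4, 13.3 and 17.4 units at E13 (log2 change 0.61, SE 0.16, limma adjusted p = 0.00318). Acaca rose by 0.58 (limma adjusted p = 0.0309), a call lost under 6 alternatives with adjusted p up to 0.0801, and Elovl6 (0.62, limma adjusted p = 0.142) did not pass. Acly, the source of cytosolic acetyl-CoA for both routes, fell by 0.55 (SE 0.16, limma adjusted p = 0.00802).

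Scap, the escort of the Srebf proteins, measured 27.2, 23.2, 23.9, 21.3 and 22.2 units at E18, against 12.95, 12.6, 9.43, 8.79 and 10.1 units at E13 (log2 change 1.07, SE 0.19, limma adjusted p = 8e-05). Insig1 measured 43.1, 89.7, 124, 66.0 and 81.0 units at E18, against 49.5, 52.0, 24.1, 25.3 and 37.8 units at E13 (log2 change 1.07, SE 0.31, limma adjusted p = 0.00778). Srebf2, the factor that acts mainly on sterol genes, measured 23.3, 12.2, 7.47, 7.71 and 8.56 units at E18, against 3.04, 5.05, 6.98, 2.52 and 7.77 units at E13 (log2 change 1.05, SE 0.34, limma adjusted p = 0.0154). Scap did not overlap between the ages, while Insig1 and Srebf2 did, and the Srebf2 call was lost without E13 replicate 4 or E18 replicate 1 (limma adjusted p = 0.0521 and 0.0595). Srebf1, the factor that acts mainly on fatty acid genes, measured 46.6, 32.02, 8.0, 28.1 and 31.3 units at E18, against 18.51, 15.9, 23.8, 17.2 and 28.0 units at E13. With E18 replicate 3 at 8.0 units it did not pass (log2 change 0.32, SE 0.32, limma adjusted p = 0.433), and without that library it passed at 0.72 (limma adjusted p = 0.013), within a range of 0.013 to 0.8 over the alternatives. Stard4 did not pass (-0.14).

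In the same fit 22.2% of all genes were higher at E18 and 24.8% lower. In the other lists, 14 of 39 other lipid synthesis genes were higher and 4 lower at E18, with a median of 0.30. Agpat3, an acyltransferase of phospholipid synthesis, rose by 1.44 (SE 0.21, limma adjusted p = 7.35e-06) and Acsl3, which activates fatty acids, by 1.08 (SE 0.15, limma adjusted p = 7.59e-06). Of 33 uptake, efflux and turnover genes 17 were higher and 3 lower, with a median of 0.66. Apoe measured 2495, 2266, 1489, 2458 and 1734 units at E18, against 160, 151, 130, 160 and 102 units at E13 (log2 change 3.88, SE 0.18, limma adjusted p = 6.06e-13). Clu, another protein of lipoproteins, rose by 2.94. Fatty acid oxidation genes were divided, with 5 of 24 higher and 9 lower and a median of -0.17. Eci2 fell by 1.04 and Echs1 by 0.91.

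Genes of motile cilia, a feature of ependymal cells, summed to 7072 to 9950 units at E18, against 65 to 123 units at E13. Of 18 such genes 17 were listed at E18 and 9 at E13, and 9 of the 9 tested were higher. Astrocyte genes summed to 3216 to 4873 units at E18, against 351 to 596 units at E13, with 12 and 9 of 12 listed. Of the 9 tested, 7 were higher. Cell cycle genes summed to 98.2 to 114 units at E18, against 538 to 1312 units at E13, with 13 and 14 of 14 listed. All 13 tested were lower. Oligodendrocyte and myelin genes summed to 159 to 222 units at E18, against at most 21 units at E13, with 11 and 5 of 19 listed. Of the 4 tested, 2 were higher and 0 lower. Whether these cell types had a part in the lipid gene differences was not tested.

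**Figure D3:**
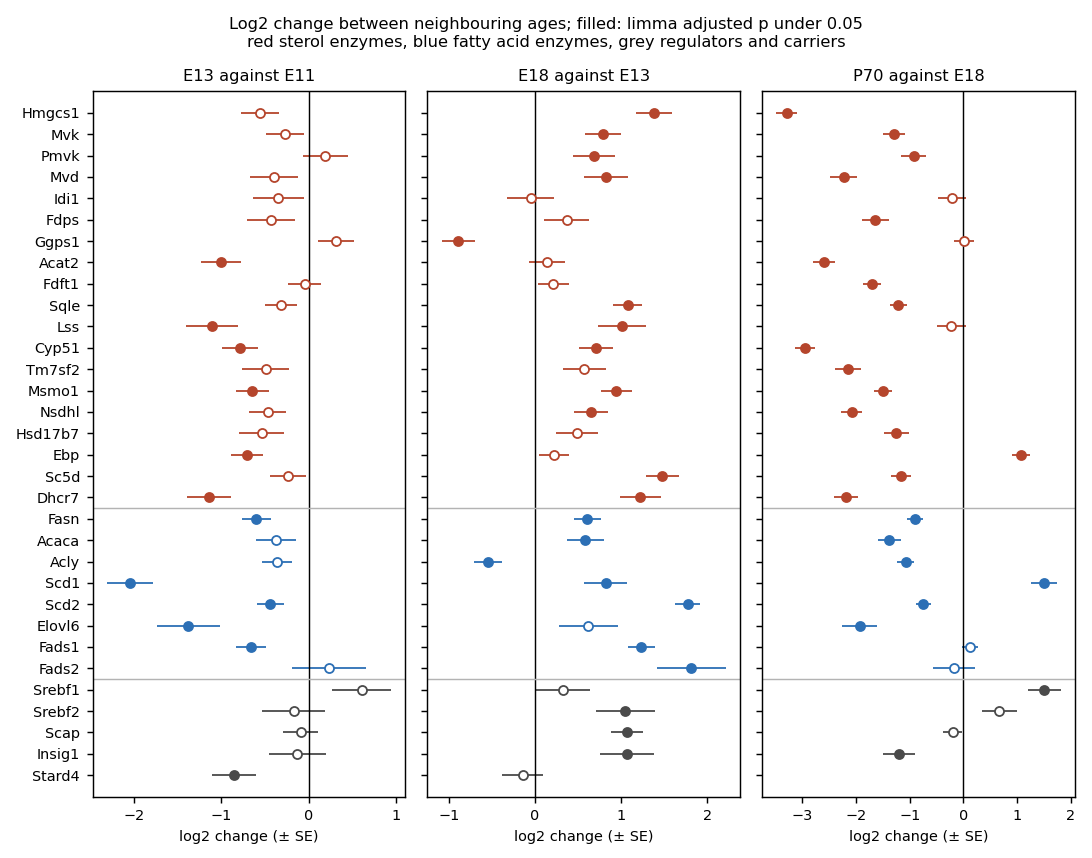
Log2 change with its standard error for each gene (rows) between neighbouring ages (panels, each with its own horizontal scale), filled where the limma adjusted p is under 0.05. Points lie mostly left of 0 for E13 against E11, right of 0 for E18 against E13 and left of 0 for P70 against E18, where Ebp, Scd1 and Srebf1 are filled on the right.

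Between P70 and E18, most sterol enzymes were lower at the later age. Of 31 genes tested with limma over 12353 genes, 24 passed, against 40.7% of all genes. Of these, 21 were lower, against 23.9% of all genes, and 3 were higher, against 16.8%. The lower ones were 15 of 19 sterol enzymes, 5 of 8 fatty acid enzymes and Insig1. The higher ones were Ebp, Scd1 and Srebf1. The median log2 change was -1.50 (sterol enzymes) and -0.83 (fatty acid enzymes), against -0.14 over all genes. Every P70 library lay below every E18 library for 19 of the 31, against 11.7% of all genes, and above for 3, against 9.28%. Rescaling the libraries by median ratios moved the median of all genes by 0.147 and the share of higher calls among all calls from 41.3% to 54.7%, and it left 21 of the 31 lower, against 17.5% of all genes, and 4 higher, against 21.2%.

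Hmgcs1 had the largest change of the 31. It measured 28.3 to 48.1 units at P70 (median 35.7), against 323, 343, 434, 384 and 369 units at E18 (log2 change -3.29, SE 0.20, limma adjusted p = 1.35e-10). Cyp51, the lanosterol demethylase, measured 3.67 to 8.73 units at P70 (median 6.99), against 55.7, 61.4, 57.5, 45.5 and 59.5 units at E18 (log2 change -2.95, SE 0.19, limma adjusted p = 2.32e-10). Acat2 measured 22.2 to 48.7 units at P70 (median 30.9), against 150, 178, 308, 152 and 189 units at E18 (log2 change -2.60, SE 0.21, limma adjusted p = 6.34e-09). None of these overlapped, and all P70 libraries were also below all E11 and E13 libraries for each of the 3. Dhcr7 measured 4.31 to 13.7 units at P70 (median 6.46), against 33.4, 38.9, 40.8, 25.9 and 36.6 units at E18 (log2 change -2.18, SE 0.23, limma adjusted p = 2.25e-07). Sqle measured 37.1 to 70.7 units at P70 (median 52.8), against 132, 125, 104, 124 and 125 units at E18 (log2 change -1.21, SE 0.16, limma adjusted p = 6.6e-06), which is a smaller difference than that of Hmgcs1. The ratio of Hmgcs1 to Sqle had a median of 0.716 at P70 (0.512 to 0.96), against 2.94 at E18 (2.44 to 4.19).

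The other 10 sterol enzymes that fell did so by 0.93 (Pmvk, the phosphomevalonate kinase, the only one of the 15 whose libraries overlapped between the ages) to 2.23 (Mvd, the mevalonate diphosphate decarboxylase) on the log2 scale. Between these lay Mvk, Sc5d, Hsd17b7, Msmo1, Fdps, Fdft1, Nsdhl and Tm7sf2. Tm7sf2 rested on 11 to 20 recovered reads per P70 library and shares 532 exon bases with Vps51. Ebp measured 29.8 to 49.7 units at P70 (median 42.6), against 19.01, 22.2, 16.7, 18.7 and 19.3 units at E18, and was the sterol enzyme that rose (log2 change 1.07, SE 0.17, limma adjusted p = 3.02e-05). Every P70 library was above every E18 library, as the plot of 8 genes by age shows. Lss (-0.23), Idi1 (-0.22) and Ggps1 (0.02) did not pass, and Idi1 rested on 3 to 7 recovered reads per P70 library and 4 to 16 at E18.

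Of the fatty acid enzymes, Acly measured 17.7 to 27.7 units at P70 (median 22.7), against 40.0, 49.98, 60.9, 41.4 and 57.4 units at E18 (log2 change -1.08, SE 0.15, limma adjusted p = 1.27e-05). Acaca measured 1.48 to 4.39 units at P70 (median 2.03), against 8.11, 5.91, 9.68, 6.82 and 7.61 units at E18 (log2 change -1.38, SE 0.21, limma adjusted p = 2.31e-05). Fasn measured 11.97 to 18.04 units at P70 (median 13.7), against 28.0, 27.4, 33.8, 25.3 and 24.1 units at E18 (log2 change -0.91, SE 0.15, limma adjusted p = 6.82e-05). Acly makes cytosolic acetyl-CoA, and Acaca and Fasn carry it to palmitate in turn. None of these overlapped between the ages. Scd2 measured 232 to 361 units at P70 (median 278), against 489, 529, 482, 463 and 455 units at E18 (log2 change -0.75, SE 0.14, limma adjusted p = 0.000216). Scd1 moved the other way, with 10.3 to 17.7 units at P70 (median 12.2), against 2.31, 5.75, 3.65, 3.78 and 4.82 units at E18 (log2 change 1.51, SE 0.24, limma adjusted p = 4.48e-05). The ratio of Scd2 to Scd1 had a median of 23 at P70 (14.5 to 29.5), against 122 at E18 (91.9 to 212).

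Elovl6 fell by 1.93 (SE 0.33, limma adjusted p = 8.06e-05) and had 2 to 48 recovered reads per library at P70. Fads2 measured 41.5 to 148 units at P70 (median 60.9), against 238, 94.0, 38.6, 50.8 and 53.0 units at E18, which overlapped widely (log2 change -0.18, SE 0.38, limma adjusted p = 0.749). Fads1 did not pass either (0.13, SE 0.15, limma adjusted p = 0.537), and neither polyunsaturated desaturase had a detected difference while its E18 level was above that at E13.

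The regulators went apart. Srebf1 measured 50.8 to 110 units at P70 (median 77.9), against 46.6, 32.02, 8.0, 28.1 and 31.3 units at E18, without overlap (log2 change 1.51, SE 0.31, limma adjusted p = 0.000511). Insig1, which sterol-responsive factors induce, measured 18.7 to 62.0 units at P70 (median 34.1), against 43.1, 89.7, 124, 66.0 and 81.0 units at E18 (log2 change -1.19, SE 0.30, limma adjusted p = 0.00316), with overlap. Srebf2 measured 10.9 to 31.7 units at P70 (median 16.1), against 23.3, 12.2, 7.47, 7.71 and 8.56 units at E18, and did not pass (log2 change 0.67, SE 0.33, limma adjusted p = 0.109). It passed as higher after median-ratio rescaling (0.83, limma adjusted p = 0.0417) and without E18 replicate 1 (0.93, limma adjusted p = 0.0255), with adjusted p up to 0.267 elsewhere. Scap did not pass (-0.20), and Stard4, at 0.94 to 2.62 units at E18, is not listed at P70, where the table gives no value for genes with a mean under 1 unit.

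**Figure D4:**
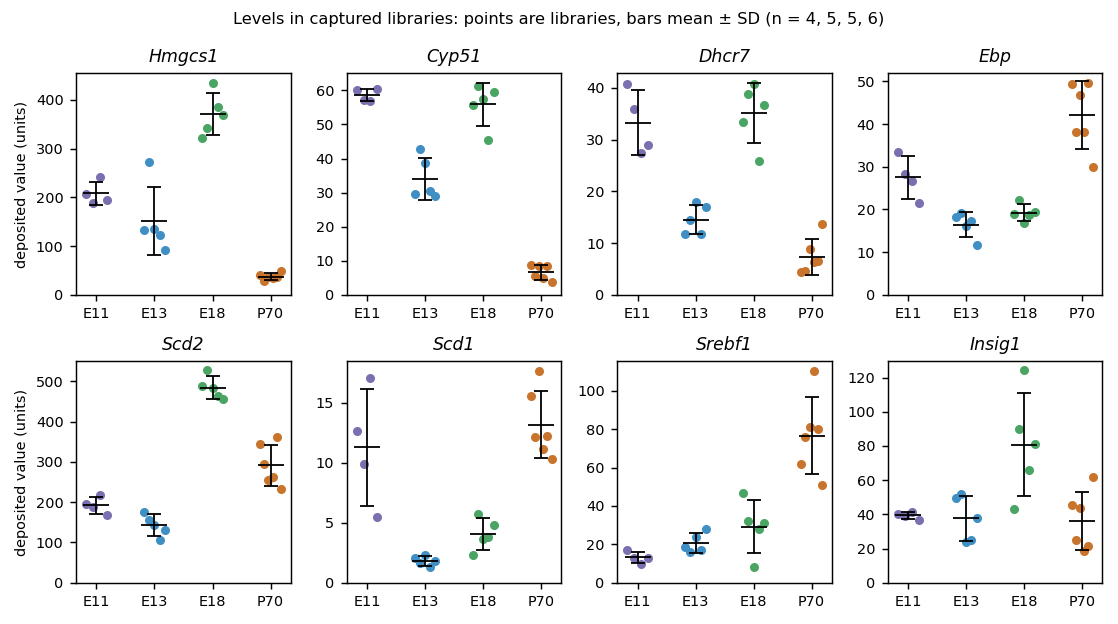
Deposited values (units) of 8 genes in each captured library (points) at E11, E13, E18 and P70, with the mean and SD as bars (n = 4, 5, 5 and 6). Hmgcs1, Cyp51 and Dhcr7 are lowest at P70, Ebp and Srebf1 highest there, and Scd1 is at 1.27 to 5.75 units at E13 and E18 and at 10.3 to 17.7 at P70.

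In the fit of P70 against E18, 16.8% of all genes were higher and 23.9% lower. Other lipid synthesis genes were higher in 6 and lower in 14 of 38 tested, with a median log2 change of -0.42. Dgat2, the enzyme of the last step of triglyceride synthesis, measured 38.2 to 140 units at P70 (median 95.4), against 6.52, 6.24, 8.83, 5.46 and 7.58 units at E18 (log2 change 3.45, SE 0.27, limma adjusted p = 4.39e-09). Of 34 uptake, efflux and turnover genes, 8 were higher and 6 lower, with Clu up by 2.57 (SE 0.21) and Apod by 2.31 (SE 0.27), and Npc2, which moves cholesterol out of lysosomes, changed by -0.84 (SE 0.11, limma adjusted p = 4.14e-06). Of 24 fatty acid oxidation genes, 4 were higher and 5 lower, among them Eci2 (-0.91) and Acadl (-0.98).

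Motile cilia genes summed to 15758 to 23439 units at P70, against 7072 to 9950 units at E18, with 11 of 17 tested higher. Oligodendrocyte and myelin genes, a cell type that makes large amounts of cholesterol, summed to 460 to 1185 units at P70, against 159 to 222 units at E18, with 17 and 11 of 19 listed. Of the 9 tested, 5 were higher and 1 lower. The myelin gene Mbp averaged 292 units at P70 and 7.74 units at E18, while Olig2, a factor of the lineage, averaged 2.81 units at P70 and 7.91 units at E18, and Cspg4 and Pdgfra, markers of its precursors, are listed at E18 and not at P70. Astrocyte genes summed to 2322 to 2897 units at P70, against 3216 to 4873 at E18, with 5 of 12 tested higher and 5 lower. Neuronal genes summed to 1082 to 1500 units at P70, against 1733 to 3866 units at E18, with 7 of 13 tested lower. Microglial genes summed to 483 to 667 units at P70, against 127 to 615 at E18, with 5 of 12 tested higher and 0 lower. Cell cycle genes summed to 44.4 to 88.5 units at P70, against 98.2 to 114 at E18, with 8 and 13 of 14 listed. Of the 8 tested, 1 was higher and 3 lower. Their part in the result was not tested.

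In the adult spheres the 2 routes differed: most sterol enzymes were lower in MB than in FB and most fatty acid enzymes were higher. With edgeR's quasi-likelihood test over 12886 genes, 22 of the 32 genes passed, against 29.6% of all genes. In MB 7 were higher, against 15.3% of all genes, and 15 were lower, against 14.3%. Of the 19 sterol enzymes 13 were lower and 0 higher (15 had an unadjusted p under 0.05, of which Ebp alone was higher in MB, and DESeq2 also called 7 of the 32 higher and 15 lower). Of the 8 fatty acid enzymes 6 were higher and Acly was lower, and among the regulators Srebf1 was higher and Stard4 lower. The median log2 change was -0.39 (sterol enzymes) and 0.44 (fatty acid enzymes), against -0.02 over all genes, and all 5 MB libraries lay below all 5 FB libraries for 13 of the 32, against 9.79% of all genes, and above for 7, against 11.4%. Standard errors in this comparison were calculated back from the log2 change and its p.

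Fdps, which makes farnesyl diphosphate at the branch between sterols and other isoprenoids, measured 454, 461, 424, 452 and 429 CPM in MB, against 737, 710, 697, 699 and 660 CPM in FB (log2 change -0.66, SE 0.10, edgeR adjusted p = 3.61e-09). Dhcr7 measured 261, 226, 253, 242 and 283 CPM in MB, against 382, 411, 368, 377 and 364 CPM in FB (log2 change -0.59, SE 0.10, edgeR adjusted p = 6.73e-07). Idi1, the isomerase of isoprenoid units, measured 352, 343, 391, 430 and 389 CPM in MB, against 536, 565, 608, 551 and 568 CPM in FB (log2 change -0.57, SE 0.10, edgeR adjusted p = 7.34e-07). These were the sterol enzymes with the smallest p, and no MB value reached an FB value. Fdps shares 1124 exon bases with the predicted gene Gm43738, so its reads may be split. Hmgcs1 measured 1153, 1125, 1108, 1203 and 1125 CPM in MB, against 1519, 1421, 1357, 1401 and 1463 CPM in FB (log2 change -0.33, SE 0.06, edgeR adjusted p = 8.77e-06). Sqle measured 411, 431, 390, 390 and 427 CPM in MB, against 568, 576, 544, 532 and 525 CPM in FB (log2 change -0.42, SE 0.08, edgeR adjusted p = 3.44e-06). The other 8 that fell did so by 0.33 (Tm7sf2) to 0.66 (Lss), and the Tm7sf2 call (edgeR adjusted p = 0.0425) was lost under 8 alternatives with adjusted p up to 0.11. Without FB replicate 5 the Sc5d call was lost (edgeR adjusted p = 0.05) and Mvd passed as lower (0.0446). Mvk, Pmvk, Mvd, Ggps1, Hsd17b7 and Ebp did not pass, with log2 changes from -0.20 (Mvd) to 0.30 (Ebp).

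Among the fatty acid enzymes, Fads2 measured 723, 664, 692, 665 and 747 CPM in MB, against 511, 484, 490, 443 and 446 CPM in FB (log2 change 0.56, SE 0.10, edgeR adjusted p = 1.79e-07). Fasn measured 325, 287, 379, 345 and 436 CPM in MB, against 233, 250, 237, 231 and 206 CPM in FB (log2 change 0.61, SE 0.13, edgeR adjusted p = 2.3e-05). Scd2 measured 2397, 2239, 2641, 2524 and 2941 CPM in MB, against 1897, 2147, 1789, 1817 and 1801 CPM in FB (log2 change 0.43, SE 0.09, edgeR adjusted p = 3.06e-05). Scd1 measured 417, 412, 497, 446 and 482 CPM in MB, against 309, 327, 309, 384 and 315 CPM in FB (log2 change 0.46, SE 0.10, edgeR adjusted p = 4.99e-05). The MB libraries were all above the FB libraries for these 4, and also for Acaca (log2 change 0.65) and Fads1 (0.37). Elovl6 did not pass (0.19, edgeR adjusted p = 0.0968). Acly measured 434 to 540 CPM in MB, against 567 to 689 CPM in FB, and fell by 0.38 (SE 0.09, edgeR adjusted p = 0.000135).

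Srebf1 measured 182, 210, 263, 207 and 256 CPM in MB, against 146, 153, 140, 127 and 163 CPM in FB (log2 change 0.62, SE 0.13, edgeR adjusted p = 4.56e-05). Srebf2 measured 161, 137, 193, 149 and 218 CPM in MB, against 198, 206, 199, 192 and 188 CPM in FB, with overlap (log2 change -0.19, SE 0.11, edgeR adjusted p = 0.161). It passed as lower without MB replicate 5 (-0.29, edgeR adjusted p = 0.0167), with adjusted p up to 0.373 elsewhere. Insig1 measured 248, 221, 338, 303 and 386 CPM in MB, against 292, 351, 304, 304 and 325 CPM in FB, which overlapped (log2 change -0.07, SE 0.11, edgeR adjusted p = 0.665). Stard4 measured 51.2, 50.3, 59.5, 52.8 and 61.5 CPM in MB, against 72.2, 69.98, 96.2, 74.7 and 65.2 CPM in FB, and fell by 0.46 (SE 0.13, edgeR adjusted p = 0.0039). Scap did not pass (-0.16).

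**Figure D5:**
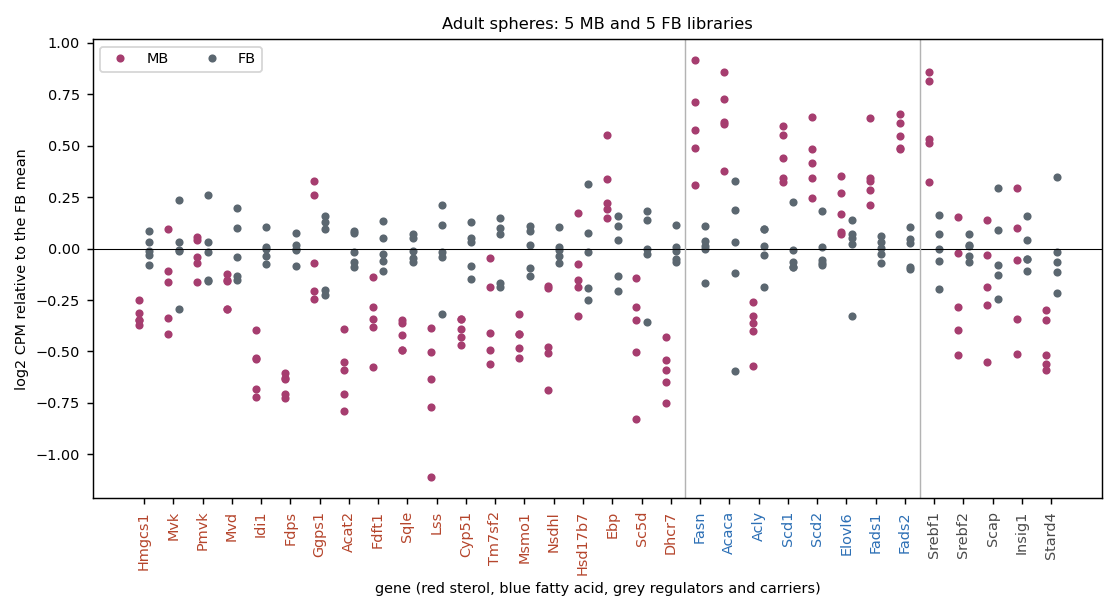
Log2 CPM of each gene relative to the mean of its FB libraries in the 5 MB (left) and 5 FB (right) sphere libraries, 1 point per library. Most sterol enzymes lie below 0 in MB, and Fasn, Acaca, Scd1, Scd2, Fads1, Fads2 and Srebf1 lie above every FB library.

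Among all genes tested in the spheres, 15.3% were higher in MB and 14.3% lower. Fatty acid oxidation genes were higher in MB in 21 of 26 and lower in 0, with a median log2 change of 0.51 (23 had an unadjusted p under 0.05, all higher). Bdh1, a ketone body enzyme, measured 141, 165, 148, 156 and 150 CPM in MB, against 63.7, 80.1, 77.3, 78.3 and 70.1 CPM in FB (log2 change 1.04, SE 0.16, edgeR adjusted p = 8.37e-09). Of 32 uptake, efflux and turnover genes 14 were higher and 2 lower. Abca1, which hands cholesterol to lipoproteins, measured 100, 107, 103, 110 and 80.4 CPM in MB, against 8.28, 6.31, 8.94, 13.8 and 7.50 CPM in FB (log2 change 3.47, SE 0.45, edgeR adjusted p = 6.26e-12), and Apoe was higher by 1.69 (SE 0.19). Of 39 other lipid synthesis genes 8 were higher and 8 lower, and Thrsp, Lpin1 and Me1, genes of fatty acid and glycerolipid synthesis and its NADPH supply, were higher by 0.92, 0.67 and 0.66.

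Cell cycle genes summed to 2346 to 2554 CPM in MB, against 2980 to 3261 CPM in FB, with 9 of 14 lower in MB. Astrocyte genes summed to 6410 to 6791 CPM in MB, against 4429 to 4963 CPM in FB, with 7 of 11 tested higher and 3 lower, and oligodendrocyte and myelin genes to 3027 to 3714 CPM in MB, against 3813 to 4263 CPM in FB, with 8 of 17 lower and 3 higher. The median log2 change of these 17 genes was -1.26, with 13 below 0 and 4 above. Aspa, an enzyme of these cells, went against most of the list, at 30.1 to 34.7 CPM in MB, against 1.85 to 4.32 CPM in FB. Motile cilia genes were low in both, at 43.8 to 64.6 CPM in MB, against 35.8 to 45 CPM in FB. What part these differences had in the lipid genes was not tested, and sphere values are not set against captured values, which were normalized apart.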

How the data were processed

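The members and gene lists were chosen with earlier results of these data known. Per the labels' protocols, RNA from an RNeasy micro kit went into Smart-seq2 libraries cut with Tn5; reads carry no molecular identifiers and no strand. Builds mm10 and GRCm39 and the tools STAR 2.3, Salmon 1.6.0 and DESeq2 1.34.0 appear, per the submitters' processing notes, with no role stated. For captured cells the authors deposited normalized values of an unstated unit that behave as RPKM, given at an age only where the mean is at least 1 unit. Whole reads were recovered for 12227 of 14997 genes (81.5%, within 0.01). Lines of 11 repeated symbols were left out. For spheres the authors deposited whole-number counts. R 4.3.3 was used. Captured values went into limma 3.58.1 as log2(value + 1), which understates changes of low genes, with all 20 libraries in 1 fit; sphere counts with edgeR 4.0.16 (TMM, default filter), and DESeq2 1.42.0 as an alternative. P-values were adjusted over all genes at 0.05. Named were up to 3 members of each role and list with the smallest p per comparison, plus 10 fixed members. Some genes this rule selects are not reported here. Both tests were tested on simulated data. Alternatives were another pseudocount, filter, scaling, weights, fits of 2 ages, the replicate block and leaving out each library. Coordinates are from GENCODE and RefSeq tables of GRCm38.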

Additional observations from a re-analysis of the deposited data

Results flagged for a closer look

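In 14 of 191 groups of libraries 1 library lay far from the rest, where chance gives about 1 in 20. At E18, replicate 3 stood apart 3 times, with Pmvk at 209.7 units (others 99.96 to 125.5), Acat2 at 308.4 (others 150.3 to 189.3) and Nsdhl low at 28.87 (others 52.24 to 60.81). Replicate 2 of E18 had Fdps at 85.15 units (others 44.28 to 51.05) and replicate 1 had Fads2 at 238.3 (others 38.6 to 93.95). At P70, replicate 3 had Fdps at 32.99 units (others 12.55 to 18.09), replicate 6 had Fdft1 at 41.34 (others 20.36 to 25.55) and replicate 4 had Fads2 at 147.8 (others 41.45 to 67.68). Hmgcs1 stood at 272 units in E13 replicate 2 (others 92.86 to 134.2). At E11, Fasn was 30.48 units in replicate 1 (others 26.4 to 26.83) and Srebf2 was 3.871 in replicate 3 (others 5.885 to 6.275). In the spheres, Fads1 was 702.4 CPM in MB replicate 5 (others 523.7 to 573), Scd1 was 384.3 CPM in FB replicate 4 (others 309.2 to 327) and Elovl6 was 139.8 CPM in FB replicate 3 (others 178.1 to 192.6).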

How the results depend on the processing

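Over the 32 genes, no alternative reversed a direction that passed, and of 1961 pairs of a tested gene and an alternative 1915 kept their call, 29 lost it and 17 gained it. For E13 against E11, all genes called numbered 2364, but 3811 with only those ages fitted and 4540 with a weight per library, where 1 member was higher in each case; the cause was not tested. The median change of sterol enzymes for P70 against E18 was -1.64 with a pseudocount of 0.1 and -1.33 after median-ratio rescaling, and that of fatty acid enzymes -0.66 after rescaling, which shifts all genes by construction. Leaving out 1 library at a time, members called ranged from 9 to 13 for E13 against E11, 19 to 23 for E18 against E13, 24 to 25 for P70 against E18 and 21 to 22 for MB against FB, and the sterol median from -0.55 to -0.30 (without E13 replicate 4), 0.66 to 0.75, -1.59 to -1.38 and -0.40 to -0.35 in the same order. The fatty acid median ranged from -0.58 to -0.42, 0.63 to 0.82, -0.86 to -0.79 and 0.40 to 0.48. Deviations of same-numbered libraries correlated at -0.151 to 0.266. Some of these pairs lay above and others below the highest correlation with another library of the compared group. These values can neither show nor exclude a pairing, and no label states one. With a replicate block members called were 12, 22, 24 and 21 for the comparisons as listed. Depth limits low genes at P70.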

Other observations

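Idi1 rested on 3 to 19 recovered reads in each captured library, while its neighbours in the route, Mvd and Fdps, had 20 to 459 and 22 to 303. In each sphere library Idi1 had 2450 to 5578 counts, Mvd 761 to 1311 and Fdps 2868 to 6395. Recovered reads and sphere counts come from separate processing and are not compared directly. Why Idi1 stood below both neighbours in captured libraries was not tested.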
